A study of Mus musculus with 2 samples.

Results

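Chemokines are small secreted proteins that guide leukocytes through G protein-coupled receptors, and 10 of them are described here: Ccl2, Ccl7, Ccl19, Ccl21a, Cxcl1, Cxcl9, Cxcl10, Cxcl12, Cxcl14 and Cx3cl1. They were taken by symbol from the gene lists of both count matrices. The 10 symbols matched 12 of the 32285 rows, because Ccl19 and Ccl21a each stand for 2 gene identifiers. In both cases the second identifier had 0 UMIs (unique molecular identifiers, the count of captured RNA molecules), so 10 rows carried all counts. Ccl21a belongs to a group of near-identical mouse gene copies, and a read shared by several copies cannot be placed, so its level is uncertain.

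The tissue was cochlear sensory epithelium of CBA/CaJ mice, an inbred strain, 4 to 6 weeks old at use. All mice were exposed to noise of 105 dB between 1 and 20 kHz for 2 hours, and tissue was taken 2 days later. The AAV-Isl1 library came from ears injected before the noise with AAV-Isl1, an adeno-associated viral vector for Isl1 (a LIM homeodomain transcription factor), whereas the noise-only library came from the opposite, untreated ears of the same animals. Each library pooled 5 mice, so there was 1 library per group. No vector control, unexposed ear or cell type limit of the vector is named in the labels, so effects of the virus, the injection and Isl1 cannot be told apart. With no replicate libraries there was no test: every interval below is a 95% interval for counting error only, and a ratio compares these 2 libraries rather than the treatments.

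Within the family, CC chemokines such as Ccl2 and Ccl7 attract monocytes through the receptor Ccr2, and Ccl19 and Ccl21a attract dendritic cells and lymphocytes through Ccr7. Cxcl1 acts on neutrophils through Cxcr2, while the interferon-inducible Cxcl9 and Cxcl10 act on activated T and NK cells through Cxcr3. Cxcl12 signals through Cxcr4 and retains blood cells in bone marrow, Cx3cl1 is a membrane-bound ligand of the macrophage receptor Cx3cr1, and Cxcl14 is a homeostatic chemokine of epithelia. Macrophages are the main resident immune cells of the cochlea, and noise exposure is known to bring further blood-borne cells into it.

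On GRCm38 (GENCODE vM21) Ccl2 lies at chr11:82035571-82037453 and Ccl7 beside it at chr11:82045712-82047525, both on the plus strand. On the minus strand of chromosome 4 Ccl19 lies at chr4:42754525-42756577 and Ccl21a at chr4:42772860-42773993. Chromosome 5 carries Cxcl1 (chr5:90891241-90893115, plus), Cxcl9 (chr5:92321347-92328079, minus) and Cxcl10 (chr5:92346638-92348889, minus). Cxcl12 lies at chr6:117168535-117181367 (plus), Cxcl14 at chr13:56288643-56296551 (minus) and Cx3cl1 at chr8:94772009-94782427 (plus).

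Promoter sequence is shown for 3 members. Cxcl10 and Cxcl1 both hold NF-kB forms while their ratios over all cells lay on opposite sides of 1, and Cxcl9 shares the receptor of Cxcl10. Each stretch is the 250 bases before the RefSeq transcription start on GRCm38.p6, printed 5′ to 3′ on the strand of the gene, in lower case. Capitals mark matches to a form of the NF-kB site (GGG, any 3 bases, TTCC), to the core of the interferon-stimulated response element (GAAA, any 2 bases, GAAA) or to the gamma-activated site (TTC, any 3 bases, GAA), searched on both strands. Cxcl10 lies at chr5:92348890-92349139 on the minus strand, Cxcl1 at chr5:90890995-90891244 on the plus strand, and Cxcl9 at chr5:92328080-92328329 on the minus strand.
Cxcl10: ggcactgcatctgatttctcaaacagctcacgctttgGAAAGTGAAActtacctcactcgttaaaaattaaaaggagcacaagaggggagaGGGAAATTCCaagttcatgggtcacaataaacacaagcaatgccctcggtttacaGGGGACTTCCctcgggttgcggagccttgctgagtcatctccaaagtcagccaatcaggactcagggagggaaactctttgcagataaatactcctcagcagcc
Cxcl1: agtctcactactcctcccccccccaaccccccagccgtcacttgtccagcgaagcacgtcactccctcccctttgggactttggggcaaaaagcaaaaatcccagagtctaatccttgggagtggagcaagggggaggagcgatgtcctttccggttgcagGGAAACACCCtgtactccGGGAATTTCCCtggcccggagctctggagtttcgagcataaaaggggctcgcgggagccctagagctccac
Cxcl9: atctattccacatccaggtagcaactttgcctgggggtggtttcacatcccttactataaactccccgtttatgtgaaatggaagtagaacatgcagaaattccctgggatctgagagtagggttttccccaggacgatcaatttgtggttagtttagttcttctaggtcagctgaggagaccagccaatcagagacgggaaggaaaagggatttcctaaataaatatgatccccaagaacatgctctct
The Cxcl10 stretch held 1 response element core, GAAAGTGAAA, starting 213 bases before the start, and 2 NF-kB forms, GGGAAATTCC at 159 bases and GGGGACTTCC at 104 bases. The Cxcl1 stretch held 3 matches to the NF-kB form and 0 to the others, at 89, 71 and 70 bases, of which the last 2 overlap in the capitals. The Cxcl9 stretch held 0 matches to any of the 3 motifs. RefSeq promoters were listed for 8 of the 10 members, and 4 of those 8 had 0 matches. Ccl19 held 1 response element core, and Cxcl14 held 1 response element core and 1 gamma-activated site. Over 32851 promoter windows of the same length, 4.65% held the NF-kB form, 2.98% the response element core and 7.02% the gamma-activated site. A match describes the letters and not binding.

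The matrices listed 21068 barcodes for noise-only and 24209 for AAV-Isl1, against about 1600 cells loaded per the labels, so not every barcode need be a whole cell. After filtering, 18655 and 21736 cells were kept, with 33366338 and 36122538 UMIs and medians of 1046 and 1086 UMIs per cell. The cells fell into 35 clusters, made without any chemokine or chemokine receptor gene, and 27 of them held at least 90 cells in each library. In all 27, the median UMIs per cell were lower in the AAV-Isl1 library. Blood and immune classes made up 943 and 3093 kept cells, and hair cell-like cells, the defining cells of the labelled sensory epithelium, only 111 and 395. Isl1 itself was counted at 79.8 and 112 CPM (counts in 1000000 UMIs), although the labels do not say whether vector RNA maps to the annotated gene. Erythroid-like cells, which should make none of these chemokines, served as a measure of free RNA (170 and 648 cells, medians of 2290 and 1945 UMIs). In them Cxcl12 stood at 50.5 and 83.9 CPM, Cxcl1 at 42.9 and 32.9, and Cxcl10 at 15.1 and 52.5. These UMIs were not evenly spread, since 5 AAV-Isl1 erythroid-like cells held 28 of the 67 Cxcl10 UMIs, so this level is an approximate background.

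Over all kept cells, 3 of the 10 chemokines were at least 1.5-fold higher in the AAV-Isl1 library and 1 was at least 1.5-fold lower. Of all 17134 genes with at least 20 UMIs, 7.66% were that much higher and 3.62% that much lower. The median log2 ratio of the members was 0.02, beside -0.02 for all genes. An all-cells ratio mixes the level within cell types with how many cells of each type were captured, which is why each member is followed into its source cells below.

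Cxcl9 went from 8 UMIs (0.240 CPM) in the noise-only library to 276 UMIs (7.64 CPM) in the AAV-Isl1 library, a ratio of 31.9 (interval 15.9 to 74.6). Ccl21a went from 8 to 212 UMIs, or 0.240 to 5.87 CPM, a ratio of 24.5 (12.2 to 57.4) that rested on very few cells. Cxcl10 stood at 33.1 and 65.7 CPM, a ratio of 1.99 (1.85 to 2.13). These 3 were the members above the 1.5-fold line.
Cxcl1 was the member below that line, at 101 CPM in noise-only and 64.3 in AAV-Isl1 (ratio 0.638, interval 0.605 to 0.673). Cxcl14 lay just inside the line on the high side, at 14.1 and 20.4 CPM (1.45, 1.29 to 1.63). Ccl2, at 84.8 and 89.4 CPM, and Ccl7, at 72.3 and 70.9, were nearly level between libraries, with ratios of 1.05 (1.00 to 1.11) and 0.981 (0.927 to 1.04). Ccl19 (18.1 and 14.8), Cxcl12 (218 and 183) and Cx3cl1 (21.8 and 17.4) were lower in the AAV-Isl1 library, with ratios of 0.817, 0.841 and 0.797 and intervals below 1. Giving every cluster the same weight in both libraries moved 5 ratios to the other side of 1: Ccl2 to 0.874, Ccl19 to 1.16, Cxcl12 to 1.04, Cxcl14 to 0.931 and Cx3cl1 to 1.04. Thinning to 1000 UMIs left out the shallower cells, 47.6% of noise-only and 45.0% of AAV-Isl1 kept cells. Over the rest, the ratio of Cxcl9 was 105.6 and that of Ccl21a 3.27. The AAV-Isl1 cells with 53, 47 and 31 Ccl21a UMIs held 932, 910 and 995 UMIs in all, so they were among those left out.

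**Figure D1:**
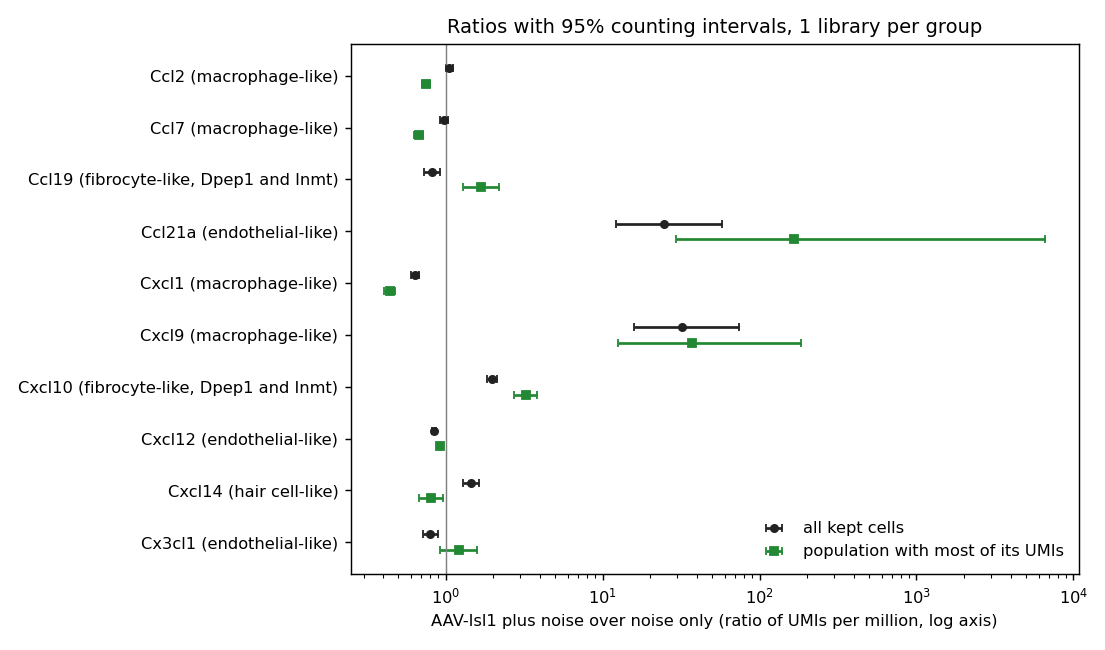
Ratio of AAV-Isl1 plus noise over noise only for each chemokine on a log axis, over all kept cells (circles) and in the population named in brackets, which holds the largest share of its UMIs over both libraries (squares), with 95% counting intervals and 1 library per group. Cxcl9 and Ccl21a lie far to the right in both, while Ccl2 and Ccl7 lie near 1 over all cells and below 1 in macrophage-like cells.

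Over both libraries together the members fell into 4 source patterns. Macrophage-like cells, named from 10 of 11 markers, led Ccl2, Ccl7, Cxcl1 and Cxcl9. Endothelial-like cells, with 11 of 11 markers, led Cxcl12 and Ccl21a. Fibrocyte or mesenchymal-like cells led Ccl19 and Cxcl10, although the largest single source of Ccl19 in noise-only was the Rgs5 and Ndufa4l2 pericyte-like cluster, with 26.1% of its UMIs. Cx3cl1 had no single main source: fibrocyte, mesenchymal and osteoblast classes together held 49.8% of its UMIs in noise-only and 29.3% in AAV-Isl1, and vessel classes 18.0% and 19.6%. The label of stromal and immune cells was incomplete for Cxcl14, whose largest single source was hair cell-like cells, with 40.9% of its UMIs in noise-only and 53.4% in AAV-Isl1. Immune or blood classes held 32.6% and 19.0% of them, and fibrocyte, mesenchymal and osteoblast classes 14.7% and 16.1%. Chemokines were not used to name any cluster.

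**Figure D2:**
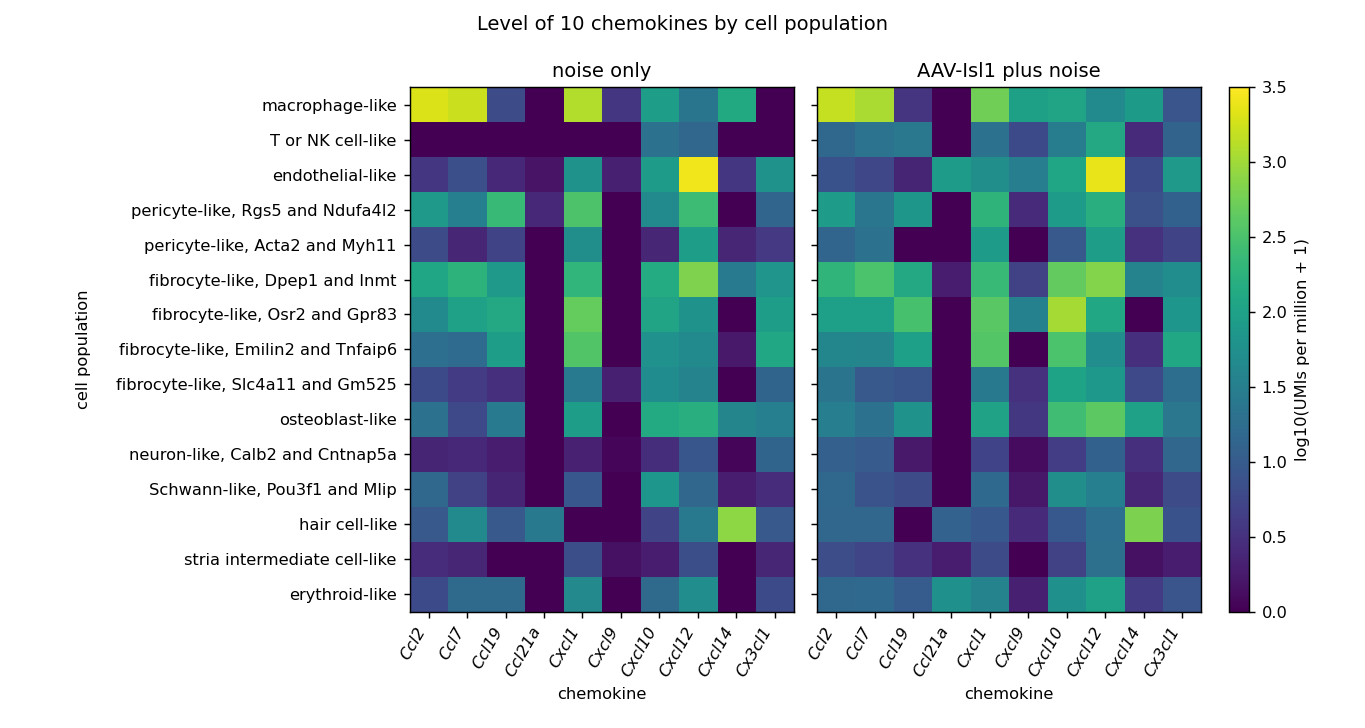
Level of each chemokine (columns) in 15 cell populations (rows) as log10 of CPM plus 1, in the noise-only library (left) and the AAV-Isl1 library (right). Bright squares in both panels include Ccl2, Ccl7 and Cxcl1 in macrophage-like cells, Cxcl12 in endothelial-like and Dpep1 and Inmt cells and Cxcl14 in hair cell-like cells, and in the right panel also Cxcl10 in the Osr2 and Gpr83 cluster.

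Few cells carried these RNAs. Cxcl12 was found in the most cells, 11.3% of noise-only cells and 11.7% of AAV-Isl1 cells, followed by Cxcl1 at 6.01% and 5.00%. Ccl2 was found in 532 and 859 cells, and 79 noise-only cells (0.423%) and 138 AAV-Isl1 cells (0.635%) were enough to hold 50% of its UMIs. For Ccl7 those numbers were 52 and 97 cells. At the other end, Cx3cl1 UMIs were spread thinly: 88.8% and 93.1% of its positive cells had a lone UMI. Cxcl9 was found in 7 and 70 cells and Ccl21a in 7 and 13, and in the AAV-Isl1 library 10 cells held 50% of Cxcl9 and 3 cells held 50% of Ccl21a.

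**Figure D3:**
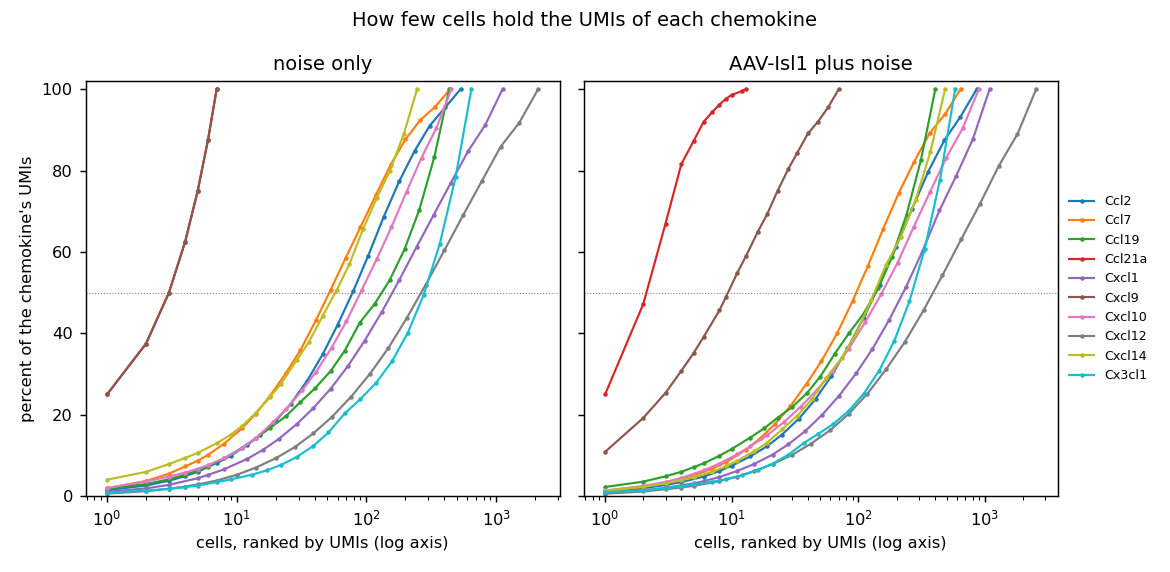
Cumulative percent of each chemokine's UMIs (y axis) against the number of cells, ranked from the cell with the most UMIs (x axis, log), in each library; the dotted line is at 50%. In the noise-only panel Ccl21a and Cxcl9 coincide at 7 cells, and in the AAV-Isl1 panel Ccl21a reaches 50% at 3 cells while Cxcl12 and Cx3cl1 need the most.

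Ccl2, the main monocyte attractant, was concentrated in macrophage-like cells, which held 84.8% of its UMIs in noise-only and 79.9% in AAV-Isl1. There it stood at 2084 CPM in 556 noise-only cells and 1566 in 1038 AAV-Isl1 cells, a ratio of 0.752 (0.711 to 0.795). Macrophage-like cells were 2.98% and 4.78% of kept cells, so the ratio near 1 over all cells stood beside more macrophage-like cells and a lower level within them. Ccl7, a second Ccr2 ligand, stood at 1676 and 1126 CPM in these cells (0.672, 0.630 to 0.716). Cxcl1, the neutrophil attractant, stood at 1247 and 550 CPM (0.441, 0.405 to 0.479), the lowest of the 3 ratios.

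Without the 5 strongest cells of each library the ratios in macrophage-like cells were 0.758 (0.716 to 0.803) for Ccl2, 0.696 (0.651 to 0.744) for Ccl7 and 0.446 (0.408 to 0.487) for Cxcl1. Cells with at least 10 Ccl2 UMIs were 99 of 556 macrophage-like cells in noise-only (17.8%, interval 14.7 to 21.2%). In AAV-Isl1 they were 80 of 1038 (7.71%, 6.16 to 9.50%). For Ccl7 they were 69 (12.4%) and 66 (6.36%), and for Cxcl1 58 (10.4%) and 14 (1.35%). These counts were not thinned to equal depth, and the noise-only cells were deeper, at medians of 1718 and 1361 UMIs. Cells with 1 or 2 UMIs were 16.5% and 20.5% for Ccl2, 10.97% and 11.5% for Ccl7, and 11.2% and 14.7% for Cxcl1. Any UMI of Ccl2 was seen in 56.1% and 49.9% of macrophage-like cells, at medians of 1718 and 1361 UMIs per cell, beside 1.18% and 2.16% of erythroid-like cells. After thinning each cell to 1000 UMIs, which left out 140 and 292 shallower cells, the shares with Ccl2 were 57.0% and 48.7%, with Ccl7 38.2% and 30.4%, and with Cxcl1 34.9% and 26.3%. The shares of all 3 were thus also lower in the AAV-Isl1 library at equal depth. Their intervals overlapped for Ccl2 (52.1 to 61.8% and 45.0 to 52.3%) and for Ccl7 (33.5 to 43.1% and 27.1 to 33.9%). For Cxcl1 they were 30.3 to 39.7% and 23.1 to 29.6%. Erythroid-like cells had Ccl7 in 1.18% and 1.23% and Cxcl1 in 4.12% and 4.17%.

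**Figure D4:**
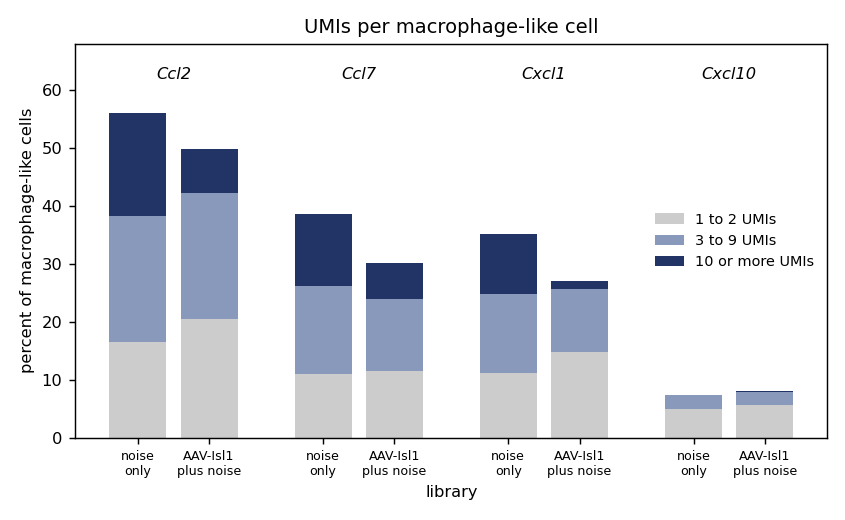
Percent of macrophage-like cells (y axis) with 1 to 2, 3 to 9 or at least 10 UMIs (stacked) of Ccl2, Ccl7, Cxcl1 and Cxcl10, in each library (556 noise-only and 1038 AAV-Isl1 cells). The dark segment of at least 10 UMIs is smaller in the AAV-Isl1 library for Ccl2, Ccl7 and Cxcl1, at 7.71%, 6.36% and 1.35%. Cells were not thinned to equal depth, and their medians were 1718 and 1361 UMIs.

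These 3 chemokines shared cells. Of the macrophage-like cells with Ccl7, 93.95% in noise-only and 89.8% in AAV-Isl1 also had Ccl2, and of those with Cxcl1, 87.8% and 74.4% had Ccl2. Cells with both genes of a pair were deeper than the rest, with medians of 2358 and 1740.5 UMIs for Ccl2 with Ccl7. Other marker lists also differed between libraries in the macrophage-like cells, and their part in the chemokine levels was not tested. The 7-gene monocyte list went from 747 to 1233 CPM (4 genes at least 1.5-fold higher, 0 lower), with Ly6c2, a marker of blood monocytes, at 9.55 and 121, and Chil3 at 0 in noise-only. Not all of its genes were higher: F13a1 stood at 310 and 210 CPM (0.677, 0.582 to 0.787) and Itgam at 208 and 179 (0.859, 0.722 to 1.02). The 11-gene macrophage list, with 0 genes at 0, stood at 21218 and 18860 CPM (0.889; 0 genes at least 1.5-fold higher, 2 lower). The neutrophil list was 3.82-fold higher and the T or NK cell list 1.80-fold higher in the same cells. Of the macrophage-like cells, 57 and 248 carried a UMI of Ly6c2, Chil3, Plac8, S100a4 or Ccr2, genes that were all higher in AAV-Isl1. Without those cells the ratios were 0.867 (0.817 to 0.919) for Ccl2, 0.773 (0.723 to 0.826) for Ccl7 and 0.407 (0.371 to 0.447) for Cxcl1.

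In the fibrocyte or mesenchymal-like clusters given here the Ccr2 ligands were mostly higher in the AAV-Isl1 library. In the fibrocyte or mesenchymal-like cluster led by Dpep1 and Inmt, Ccl2 stood at 115 and 197 CPM (1.71, 1.39 to 2.11) and Ccl7 at 184 and 323 (1.76, 1.49 to 2.07). Ccl2 in the cluster led by Osr2 and Gpr83 stood at 46.6 and 93.3 (2.00, 1.24 to 3.25), whereas Ccl7 there was nearly level at 98.6 and 93.3. Another cluster of this class, led by Emilin2 and Tnfaip6, had few counts of either: 25 and 19 UMIs of Ccl2 and 22 and 18 of Ccl7 in 938 and 447 cells. Its ratios of 2.22 and 2.39 had intervals that began at 1.155 and 1.21, and its noise-only levels of 18.0 and 15.8 CPM lay under the upper limits of 18.2 and 33.0 in erythroid-like cells. Ccl2 was nearly level in pericyte or smooth muscle-like cells led by Rgs5 and Ndufa4l2, at 77.3 and 81.1 CPM (1.05, 0.699 to 1.57). Markers of other cell types were also higher in the Dpep1 and Inmt cluster of the AAV-Isl1 library. The erythroid list stood at 132 and 1358 CPM, the neutrophil list at 20.1 and 205, the T or NK cell list at 2.16 and 15.9 and the macrophage list at 115 and 189, and their part in these results was not tested.
Cxcl1 did not follow them in the same clusters. It stood at 354 and 367 CPM in the Emilin2 and Tnfaip6 cluster, 464 and 398 in the Osr2 and Gpr83 cluster and 203 and 225 in the Dpep1 and Inmt cluster, and all 3 ratio intervals contained 1. In pericyte or smooth muscle-like cells led by Rgs5 and Ndufa4l2, Cxcl1 was lower, at 337 and 188 (0.559, 0.443 to 0.701).

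In AAV-Isl1 neuron-like cells, Ccl2 lay mostly in cells that also carried macrophage RNA. In the neuron-like cluster led by Calb2 and Cntnap5a, Ccl2 went from 9 UMIs in 725 cells to 85 UMIs in 1267 cells, a ratio of 8.45 (4.25 to 19.1). The 27 AAV-Isl1 cells with Ccl2 held macrophage markers at 2184 CPM, with 10 of the 11 genes present and a macrophage UMI in 85.2% of these cells. The 1240 AAV-Isl1 cells without Ccl2 held 54.0 CPM, with a macrophage UMI in 9.44%. Nefl, a neurofilament gene of neurons, was at 1621 and 1874 CPM in those 2 sets, so both kinds of RNA were under the same barcodes. In noise-only the 8 cells with Ccl2 had a macrophage UMI in 1 cell, with 10 of the 11 genes at 0, and held 13.5 CPM of the list beside 11.5 in the 717 cells without Ccl2.

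Cxcl10, an interferon-inducible ligand of Cxcr3, was chiefly stromal, and its level there was far higher in the AAV-Isl1 library. In the Osr2 and Gpr83 cluster it stood at 108 CPM (79 UMIs, 391 cells) in noise-only and 1066 (480 UMIs, 324 cells) in AAV-Isl1, a ratio of 9.86 (7.76 to 12.7). The Emilin2 and Tnfaip6 cluster followed at 57.5 and 325 (5.66, 4.29 to 7.504), then the Dpep1 and Inmt cluster at 142 and 461 (3.24, 2.74 to 3.84). In the fibrocyte or mesenchymal-like cluster led by Slc4a11 and Gm525 it stood at 48.8 and 105 (2.16, 1.54 to 3.06), and in osteoblast-like cells at 138 and 264 (1.91, 1.51 to 2.43). In the AAV-Isl1 library these levels lay above the erythroid-like level, which itself went from 15.1 CPM in noise-only to 52.5 in AAV-Isl1.
Immune and vessel sources of Cxcl10 differed less between libraries. Macrophage-like cells stood at 92.0 and 109 CPM (1.18, 0.923 to 1.51) and endothelial-like cells at 85.3 and 114 (1.33, 1.07 to 1.66). Schwann or satellite glia-like cells led by Pou3f1 and Mlip stood at 68.3 and 52.0 (0.761, 0.570 to 1.01), the latter no higher than the erythroid-like level. Of the 9 clusters above that background in either library, 6 had a ratio interval above 1 and 0 below. The part of the higher erythroid-like level in these ratios, such as that of endothelial-like cells, was not tested. The fibrocyte, mesenchymal and osteoblast classes together held 46.6% of Cxcl10 UMIs in noise-only and 61.9% in AAV-Isl1.

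In the Osr2 and Gpr83 cluster more cells carried Cxcl10, and the positive ones carried more. There 37 of 391 noise-only cells (9.46%) and 94 of 324 AAV-Isl1 cells (29.0%) had a UMI, at medians of 1512 and 1166 UMIs per cell, beside 1.18% and 5.25% of erythroid-like cells. Thinned to 1000 UMIs the shares were 6.95% and 27.5%, beside 1.34% and 2.95% of erythroid-like cells. UMIs per positive cell were 2.14 and 5.11, and cells with at least 5 Cxcl10 UMIs numbered 2 and 37. Without the 5 strongest cells of each library the ratio was 11.0 (8.25 to 15.0). UMIs per positive cell were not higher in every population: they were 2.42 and 2.21 in the Emilin2 and Tnfaip6 cluster, 3.36 and 2.76 in the Slc4a11 and Gm525 cluster, 2.71 and 2.59 in osteoblast-like cells and 2.69 and 2.16 in endothelial-like cells.

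Other interferon-gamma genes were higher in the same cluster. Of the 22 genes of the interferon gamma list, 15 had at least 20 UMIs in the Osr2 and Gpr83 cluster, and 12 were at least 1.5-fold higher with 0 lower, where 11.0% of all 6899 genes tested were that much higher. The guanylate-binding protein Gbp7 had the highest ratio, 7.84, and Irf1 stood at 1.30; both were chosen after their values were seen. The Dpep1 and Inmt cluster had 9 of 17 higher and 1 lower (background 9.96%), macrophage-like cells 11 of 19 higher and 0 lower (10.7%), and endothelial-like cells 1 of 19 higher and 0 lower (9.89%). Neutrophil markers were 22.7-fold higher in the Osr2 and Gpr83 cluster (6.85 and 156 CPM for the list, 10 and 6 of its 12 genes at 0) and macrophage markers 2.75-fold (31.5 and 86.6). Whether these bear on Cxcl10 was not tested.

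**Figure D5:**
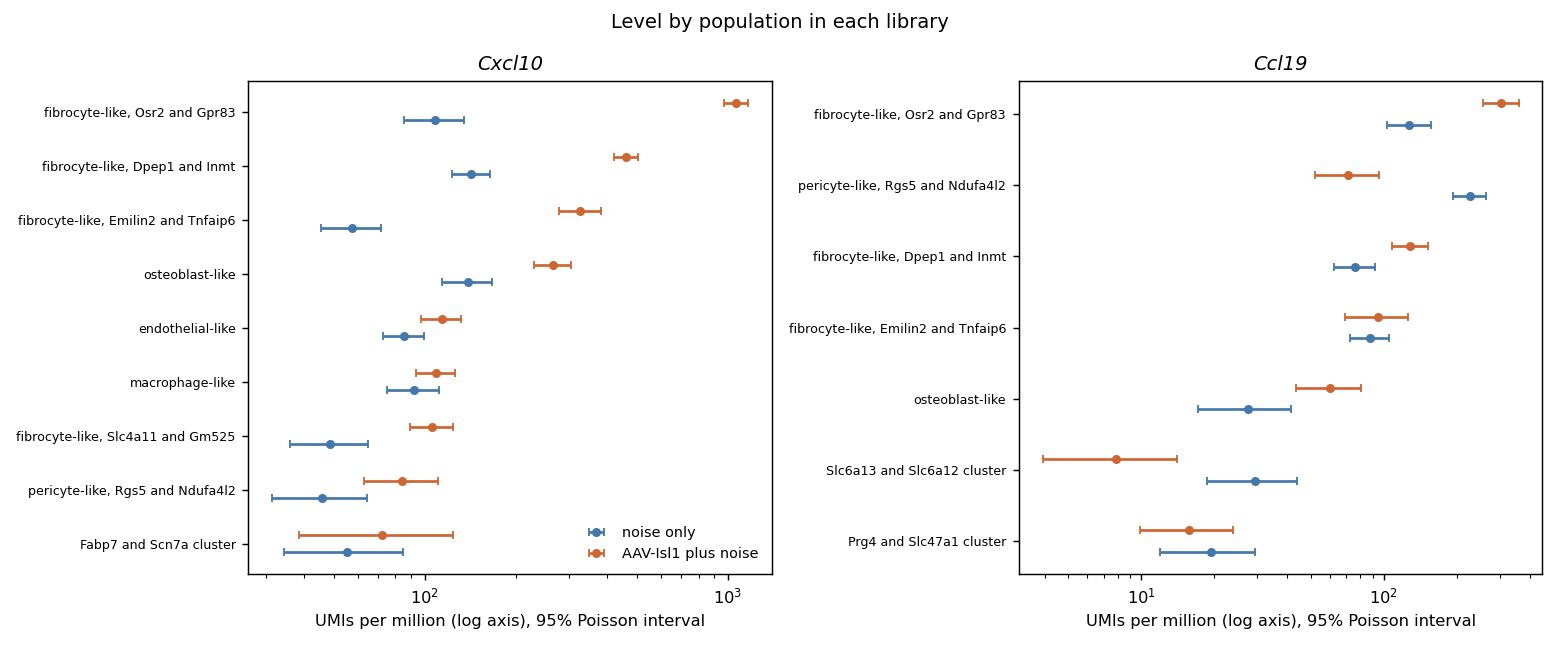
CPM (x axis, log) of Cxcl10 (left) and Ccl19 (right) with 95% Poisson intervals in up to 9 populations (rows), for the noise-only library (blue) and the AAV-Isl1 library (orange). Cxcl10 reaches 1066 in the Osr2 and Gpr83 fibrocyte-like cluster of the AAV-Isl1 library, and in that library Ccl19 is lower in the Rgs5 pericyte-like cluster and higher in the Osr2 and Gpr83 cluster.

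Cxcl9, the second Cxcr3 ligand, is typically made by macrophages and endothelium exposed to interferon gamma, and most of its UMIs lay in those 2 populations. Macrophage-like cells had 3 UMIs in 2 cells of the noise-only library and 160 UMIs in 27 cells of the AAV-Isl1 library, or 2.60 and 97.1 CPM (ratio 37.3, interval 12.5 to 183). Endothelial-like cells had 2 UMIs in 2 cells and 47 UMIs in 17 cells (29.9, 7.83 to 254). In the same endothelial-like cells the neutrophil list stood at 8.17 and 280 CPM, the macrophage list at 65.9 and 165 and the T or NK cell list at 0 and 16.3, and their part in the ratio was not tested. The next population, the Osr2 and Gpr83 cluster, had 0 and 15 UMIs, the latter in 2 cells. The share of macrophage-like cells with Cxcl9 was 0.360% and 2.60%, beside 0% and 0.154% of erythroid-like cells, where 0 of 170 allows a share of up to 1.76%. The strongest cell held 30 UMIs and the top 5 macrophage-like cells 88. Of the 27 macrophage-like cells with Cxcl9, 6 also had Cxcl10. Without macrophage-like cells with monocyte genes, the ratio was 34.2 (11.4 to 168).

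The Ccr7 ligand Ccl19, a product of lymphoid and perivascular stroma, had ratios on both sides of 1 among stromal populations. Pericyte or smooth muscle-like cells led by Rgs5 and Ndufa4l2 had 158 UMIs in noise-only and 44 in AAV-Isl1, or 226 and 71.3 CPM (0.315, 0.220 to 0.443). Osr2 and Gpr83 fibrocyte-like cells had 93 and 137 UMIs, or 127 and 304 CPM (2.39, 1.82 to 3.14). The Dpep1 and Inmt cluster stood at 76.2 and 128 (1.68, 1.30 to 2.19), osteoblast-like cells at 27.4 and 59.95 (2.19, 1.28 to 3.83), and the Emilin2 and Tnfaip6 cluster at 87.8 and 94.5 (1.08, 0.747 to 1.53). The pericyte-like cells held 26.1% of Ccl19 UMIs in noise-only and 8.22% in AAV-Isl1. Their positive cells numbered 62 of 733 (8.46%) and 25 of 689 (3.63%), at medians of 783 and 738 UMIs, beside 2.94% and 1.54% of erythroid-like cells. Thinned shares were 12.7% and 3.41%. Cells with at least 5 Ccl19 UMIs numbered 11 and 1, and without the 5 strongest cells of each library the ratio was 0.218 (0.133 to 0.342). The difference between populations was not tested.

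Ccl21a, the second Ccr7 ligand and a product of lymphatic endothelium, came from a handful of barcodes. In the AAV-Isl1 library 6 cells with at least 10 UMIs held 195 of its 212 UMIs, and 0 noise-only cells reached 10. Of those 6 cells, 4 were endothelial-like, with 47, 42, 31 and 10 UMIs of Ccl21a, and carried 2 to 5 of 7 lymphatic markers, among them Mmrn1 in each. The cell with the most Ccl21a, 53 UMIs, was classed erythroid-like and had 107 hemoglobin UMIs beside Lyve1 and Mmrn1. The sixth, with 12 UMIs, lay in a cluster led by Tectb and Otol1 and had 0 of the 7 markers. In the noise-only library, 5 of the 7 positive cells were hair cell-like with 1 or 2 UMIs each. Mmrn1 had 0 UMIs in 1167 noise-only endothelial-like cells and 19 UMIs in 5 of 1265 AAV-Isl1 ones. The ratio of Ccl21a therefore compares a few captured cells, not a level per cell type.

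Cxcl12, the ligand of Cxcr4, had the most UMIs of the members and was chiefly endothelial. Endothelial-like cells held 70.4% of its UMIs in noise-only and 55.6% in AAV-Isl1, at 2619 and 2396 CPM (0.915, 0.877 to 0.955). A UMI was seen in 71.1% and 67.0% of them at medians of 1309 and 1023 UMIs per cell, beside 8.24% and 8.49% of erythroid-like cells, and after thinning in 63.9% and 63.4%. The Dpep1 and Inmt cluster, the next source, stood at 673 and 705 (1.05, 0.951 to 1.15). Cxcl12 was lower in Rgs5 and Ndufa4l2 pericyte-like cells, at 249 and 159 (0.637, 0.493 to 0.821).
Osteoblast-like cells had 125 and 306 Cxcl12 UMIs, or 156 and 417 CPM (2.68, 2.17 to 3.32). The ratio was 1.92 (1.48 to 2.51) without the 5 strongest cells of each library. Over cells with under 5 Cxcl12 UMIs it was 1.06 (0.794 to 1.41). This cut is made on Cxcl12 itself and moved other ratios too: that of endothelial-like cells became 1.30 (1.19 to 1.41). Cells with at least 5 UMIs numbered 2 of 726 in noise-only, with 23 UMIs, and 13 of 774 in AAV-Isl1, with 209. These 15 cells, looked at after their values were seen, differed from the cluster they were in for some genes but not for others. Adipoq was found in 6 of 15 (40.0%, 16.3 to 67.7%) and in 0 of the 1485 others, Lepr in 53.3% and 4.65%, and Kitl in 9 of 15 and 4.65%, all genes known from Cxcl12-abundant reticular cells of bone marrow. Ibsp, a bone matrix gene, was found in 0 of the 15 and 59.0% of the others, and Bglap in 13.3% and 34.3%. The bone genes Alpl (13.3% and 13.8%) and Col1a1 (26.7% and 15.5%) did not set the 15 cells apart. In clusters with few Cxcl12 UMIs the free RNA level moved too, from 50.5 to 83.9 CPM in erythroid-like cells, and 6 of 23 clusters lay above it in either library. Of these, 3 had an interval above 1, 2 below and 1 containing 1. T or NK cell-like cells were among the 3, with 2 and 75 UMIs (9.62, 2.57 to 80.9), but stood at 13.4 CPM in noise-only, below the erythroid-like level, and at 129 in AAV-Isl1. Without the 5 strongest cells of each library the endothelial-like ratio was 0.917 (0.878 to 0.957).

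Cxcl14 was the member with its largest single source in hair cell-like cells, named from 10 of 13 markers. It stood at 804 CPM in 111 noise-only cells and 646 in 395 AAV-Isl1 cells, a ratio of 0.804 (0.675 to 0.961), or 0.873 (0.723 to 1.06) without the 5 strongest cells of each library, while the ratio over all cells was 1.45. Hair cell-like cells were 0.595% and 1.82% of kept cells, a 3.05-fold larger share in the AAV-Isl1 library. The RNA was widespread among them: 79 of 111 (71.2%) and 233 of 395 (59.0%) had a UMI, at medians of 1806 and 1190 UMIs per cell, beside 0% and 0.463% of erythroid-like cells, where 0 of 170 allows up to 1.76%. After thinning, the shares were 50.5% and 47.9%, with overlapping intervals (40.5 to 60.4% and 42.1 to 53.8%). In CPM, the 13 hair cell markers together were lower in cells with Cxcl14 than without, at 5413 and 11268 in noise-only and 4979 and 5860 in AAV-Isl1. The ratios of the 13 markers in the whole class ran from 0.274 (Slc26a5, only 10 and 7 UMIs) to 1.10 (Tmc1). Among markers with at least 20 UMIs the lowest ratio was 0.470 (Ocm). Erythroid markers were 6.62-fold higher in the AAV-Isl1 hair cell-like cells (3319 and 21977 CPM for the list), neutrophil markers 56.8-fold (12.6 and 714) and macrophage markers 9.90-fold (16.7 and 166), and their part in the ratio was not tested.
The second source was macrophage-like cells, at 133 and 80.1 CPM (0.603, 0.474 to 0.766). Leaving out the 5 strongest cells of each library gave 0.706 (0.543 to 0.919). In osteoblast-like cells Cxcl14 was higher in AAV-Isl1, at 38.6 and 99.5 CPM, or 14 of 726 and 40 of 774 cells (2.57, 1.67 to 4.05). Without the 5 strongest cells of each library that ratio was 5.58 (2.80 to 12.3).

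Cx3cl1, the tethered chemokine fractalkine, was spread over endothelial-like and stromal cells at low levels. Endothelial-like cells stood at 61.3 and 74.1 CPM (1.21, 0.928 to 1.58) and the Emilin2 and Tnfaip6 cluster at 122 and 120 (0.985, 0.716 to 1.34). The Calb2 and Cntnap5a neuron-like cluster, at 12.3 and 13.2 (1.08, 0.805 to 1.45), lay near the erythroid-like upper limits of 18.2 and 11.3. Of 8 clusters above the erythroid-like level in either library, 0 had an interval that excluded 1. The all-cells ratio of 0.797 stood beside a smaller share of the Emilin2 and Tnfaip6 cluster, 5.03% of kept cells in noise-only and 2.06% in AAV-Isl1, which held 23.2% and 9.06% of its UMIs.

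Counts of members per population were as follows. In the Osr2 and Gpr83 cluster 4 of 7 members with at least 20 UMIs were at least 1.5-fold higher and 0 lower (background 11.0% and 9.91%), and in the Dpep1 and Inmt cluster 4 of 8 and 0 (9.96% and 6.86%). Osteoblast-like cells had 5 of 7 higher and 0 lower (13.2% and 8.11%). Cxcl12 was 1 of those 5, with 209 of its 306 AAV-Isl1 UMIs there in 13 cells. Endothelial-like cells had 2 of 6 higher, Ccl21a and Cxcl9, and 0 lower (9.89% and 5.83%). In macrophage-like cells 2 of 7 were higher, Cxcl9 and Cxcl12, the latter at no more than the erythroid-like level, and 2 lower, Cxcl1 and Cxcl14 (10.7% and 7.09%). Rgs5 and Ndufa4l2 pericyte-like cells had 1 of 6 higher and 3 lower (10.8% and 10.9%). The members overlap in their source cells, so these counts are not independent.

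The paired receptors lay mostly in leukocytes. Ccr2, the receptor of Ccl2 and Ccl7, had 73.7% of its UMIs in macrophage-like cells, at 48.6 and 122 CPM (2.52, 1.87 to 3.45). Cxcr2, which binds Cxcl1, had 81.2% of its UMIs in neutrophil-like cells, which numbered 25 and 482. Over all cells it had 12 and 132 UMIs, a ratio of 10.2 (5.62 to 20.2). Cxcr3, the receptor of Cxcl9 and Cxcl10, had 14 and 84 UMIs (5.54, 3.13 to 10.6), 63.3% of them in T or NK cell-like cells, which numbered 123 and 549.
Ccr7 was divided between T or NK cell-like cells (44.0% of UMIs) and B or plasma cell-like cells (40.3%). Cx3cr1 lay mainly in macrophage-like cells, with 91.8% of its UMIs there at 736 and 647 CPM (0.878, 0.802 to 0.962). Cxcr4 was low and scattered, with at most 14.8% of its UMIs in any population. The scavenger receptor of Cxcl12, Ackr3, was highest in an unnamed cluster led by Fat2 and Kcnk2, at 136 and 134 CPM. Ackr4, the scavenger of Ccr7 ligands, was sparse, with 2 and 15 UMIs in its leading population, the Tectb and Otol1 cluster. For the decoy receptor Ackr1, neuron-like clusters led by Calb2 and by Tac1 held 50.0% and 21.9% of UMIs.

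Of 21 further chemokine ligands with at least 20 UMIs, 10 were at least 1.5-fold higher in the AAV-Isl1 library and 1 lower. These counts are over all cells, where 7.66% of all genes were that much higher and 3.62% that much lower. The median log2 ratio of the ligands was 0.48. The most abundant were Cxcl2, at 394 and 372 CPM (0.944), Ccl4, at 173 and 166 (0.955), and Ccl12, at 57.8 and 61.8 (1.07), each with over 90% of its UMIs in macrophage-like cells. The highest ratios were those of Cxcl5, 2 and 51 UMIs (23.6, 6.19 to 199.7), Cxcl13, the B cell attractant, 49 and 467 UMIs (8.80, 6.55 to 12.1), and Ccl22, 4 and 33 UMIs (7.62, 2.71 to 29.6). The eosinophil attractant Ccl11, with 64.3% of its UMIs in the Osr2 and Gpr83 cluster, was the lower one, at 43.7 and 21.9 CPM (0.501, 0.459 to 0.547). Ccl3, at 65.0 and 52.6 (0.809), and Ccl27a, at 8.66 and 7.23 (0.834), were next lowest.
Of 18 chemokine receptors, 12 were at least 1.5-fold higher and 0 lower (all genes 7.66% and 3.62%), with a median log2 ratio of 1.07. Blood and immune classes made up 943 and 3093 kept cells, and the part of this difference in the ligand and receptor counts was not tested. Besides Cxcr2 and Cxcr3, Xcr1, known from cross-presenting dendritic cells, was among the highest, with 3 and 21 UMIs (6.47, 1.93 to 33.9), 95.8% of them in macrophage-like cells, and Ackr3 was the lowest at 0.855. Cx3cr1 (1.23), Ccrl2 (1.13) and Ackr3 had the most UMIs.

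In the NF-kB and inflammatory cytokine list, 4 of 22 genes were at least 1.5-fold higher and 1 lower (all genes 7.66% and 3.62%). The median log2 ratio of the list was -0.17. Its most abundant genes lay inside the 1.5-fold line: Zfp36, which destabilises cytokine RNA, at 563 and 418 CPM (0.742), Socs3, a cytokine signalling inhibitor, at 406 and 296 (0.728), and Nfkbia, the NF-kB inhibitor, at 239 and 205 (0.859). Il1rn (2.22), Il1b (1.79) and Tnfaip3 (1.67) had the highest ratios, each with most UMIs in macrophage-like cells, and Il1a (0.659) and Il1r1 (0.716) the lowest.
Of 21 interferon gamma signal and response genes, 6 were at least 1.5-fold higher and 0 lower (all genes 7.66% and 3.62%). Their median log2 ratio was 0.36. Ifng itself had 2 and 46 UMIs (21.2, 5.56 to 181), 91.7% of them in T or NK cell-like cells. Ciita, which controls MHC class II genes, had 23 and 129 UMIs (5.18, 3.31 to 8.46), and Cd274 93 and 245 (2.43, 1.91 to 3.12). Iigp1, with the third most UMIs, stood at 56.0 and 87.1 CPM (1.55), while Irf1 (0.839) and Jak1 (1.01), the most abundant, were not higher.

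Likeness of profile was read as Pearson's r of log2 (CPM plus 1) over 54 profiles, 27 clusters in each of 2 libraries, among 14340 genes. The profiles share libraries and depth, so r is a description. Ccl2 was most like Aif1 (0.81), Wfdc17 (0.79) and Mpeg1 (0.79), and Ccl7 like Wfdc17 (0.76), Mpeg1 (0.75) and Tgfbi (0.74). Cxcl1 was nearest to Ier3 (0.86), Colec12 (0.83) and Ifitm2 (0.82), and Ccl19 to Pla1a (0.84), Ifitm1 (0.82) and C1s1 (0.81). For Cxcl10 the nearest were Gbp2 (0.82), Ifi47 (0.82) and Ly6e (0.78), and for Cxcl9 the MHC class II genes H2-Aa, H2-Ab1 and H2-Eb1 (0.71 each). Cxcl12 was nearest to Cdh5 (0.80), Adgrf5 (0.79) and Abcg2 (0.79), and Cx3cl1 to Dchs1 (0.80), Tshz2 (0.78) and Ppp1r2 (0.77). Cxcl14 was nearest to Plk1 (0.73), Nek2 (0.70) and the hair cell gene Myo7a (0.70), and Ccl21a to Spag6l (0.66), Gda (0.64) and Dnah5 (0.62). Among the members, Ccl2 and Ccl7 had the highest r, 0.91.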

How the data were processed

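Per the matrix headers the deposited files hold raw UMI counts made by the authors with Cell Ranger 5.0.1; the submitters' processing notes name Cell Ranger 5.0, STAR, Seurat 3.2.2 and mm10 (GRCm38), and per the labels libraries were made with the 10x 3' v3.1 kit and read at 150 bp from both ends. Genes are counted near their 3' end. The members and lists were chosen with earlier results of these data known.

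Barcodes were kept from 300 detected genes upward and up to a mitochondrial share of 20%. Scrublet in scanpy 1.11.5 ran per library with an expected rate of 0.06, but its automatic thresholds (0.67 and 0.572) called 0 doublets, so a score of 0.195, set after this was seen, was used in both, which removed 1298 and 936 cells. The libraries share 145 barcodes (0.688% and 0.599%). Cells were clustered together (2927 variable genes, no chemokine or receptor gene, 50 components, 15 neighbours, Leiden resolution 1). A cluster was named from at least 3 markers 4-fold above other cells and in at least 10% of its cells, with 1 among its top 10 genes, or from 5 with no such gene where they numbered at least 2 times those of the next class, a rule relaxed after the clusters were seen; 23 of 35 were named. The cluster led by Tectb and Otol1 was kept unnamed.

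UMIs were summed per library and population and divided by all UMIs of those cells, with exact Poisson intervals; ratios have exact conditional binomial intervals and shares Clopper-Pearson intervals, all for 95% counting error, and scripts were tested on simulated counts. Ratios within populations needed at least 90 cells in each library and 20 UMIs. A count of 0 was read as up to 3 counts. Named genes were the members, their receptors, and in each list the 3 genes with the most UMIs and the 3 with the largest change in each direction. Positions are from GENCODE vM21.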

Additional observations from a re-analysis of the deposited data

Results flagged for a closer look

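In 5 chemokines the ratio interval lay wholly above 1 in one population and wholly below 1 in another, among populations above the erythroid-like level in either library. This rule admits populations above that level in only 1 library, which favours extreme ratios. The highest ratios of Ccl2, Ccl7 and Cxcl12 given below come from such populations. These differences between populations were not tested, and each rests on 1 library per group.

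Ccl2 had a ratio of 2.22 in the fibrocyte or mesenchymal-like cluster led by Emilin2 and Tnfaip6 (25 and 19 UMIs) and 0.752 in macrophage-like cells. Ccl7 had 2.39 and 0.672 in the same populations (22 and 18 UMIs in the first). In the Emilin2 and Tnfaip6 cluster both lay above the erythroid-like level in the AAV-Isl1 library only: in noise-only they stood at 18.0 and 15.8 CPM, beside upper limits of 18.2 and 33.0 in erythroid-like cells. The Dpep1 and Inmt cluster lay above these limits in both libraries. Its ratios were 1.71 (1.39 to 2.11) for Ccl2 and 1.76 (1.49 to 2.07) for Ccl7.

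Ccl19 had 2.39 in the Osr2 and Gpr83 cluster and 0.315 in pericyte or smooth muscle-like cells led by Rgs5 and Ndufa4l2, with 93 and 137 UMIs in the first and 158 and 44 in the second.

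Cxcl12 had 9.62 in T or NK cell-like cells, from 2 and 75 UMIs (13.4 CPM in noise-only, below the erythroid-like 50.5, and 129 in AAV-Isl1), and 0.637 in the Rgs5 and Ndufa4l2 pericyte-like cells. In the T or NK cell-like cells 31 of 549 AAV-Isl1 cells (5.65%) had a UMI, at a median of 856 UMIs, beside 8.49% of erythroid-like cells at 1945; thinned to 1000 UMIs the shares were 9.52% and 5.54%. Osteoblast-like cells lay above the erythroid-like Cxcl12 level in both libraries. Their Cxcl12 ratio was 1.92 (1.48 to 2.51) without the 5 strongest cells of each library. Over cells with under 5 Cxcl12 UMIs it was 1.06 (0.794 to 1.41). Cxcl14 had 2.57 in osteoblast-like cells (31 and 73 UMIs) and 0.603 in macrophage-like cells (153 and 132 UMIs).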

How the results depend on the processing

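No paired analysis was possible because each group is 1 library. Of 110 alternatives over all cells, 80 left the ratio inside its counting interval and 99 kept it on the same side of 1. Within populations, 128 of 148 did the former and all 148 the latter. These covered the leading source of each member and other pairs picked by hand, so the 148 do not stand for all populations. Alternatives without a finite ratio were left out. The cause of each move was not tested.

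Thinning to 1000 UMIs left out all shallower cells. The ratios over the remaining cells were 1.16 (Ccl2), 1.12 (Ccl7), 0.718 (Ccl19), 3.27 (Ccl21a), 105.6 (Cxcl9), 0.739 (Cxcl12) and 0.665 (Cx3cl1). Within the leading population they were 0.757 (Ccl7), 18.1 (Ccl21a), 0.517 (Cxcl1) and 0.829 (Cxcl12). As a mean of CPM per cell over all kept cells, the ratios were 1.34 (Ccl2), 1.27 (Ccl7), 0.817 (Cxcl1), 0.998 (Cxcl12) and 1.89 (Cxcl14). With clusters at equal weights in both libraries they were 0.874 (Ccl2), 0.839 (Ccl7), 1.16 (Ccl19), 0.706 (Cxcl1), 2.62 (Cxcl10), 1.04 (Cxcl12), 0.931 (Cxcl14) and 1.04 (Cx3cl1). Without blood cell classes they were 1.44 (Ccl2), 1.42 (Ccl7), 0.706 (Cxcl1), 0.8798 (Cxcl12) and 1.91 (Cxcl14). Cxcl1 was 0.676 over all deposited barcodes, 0.677 with no doublets removed and 0.580 under a stricter filter (from 500 genes, mitochondrial share up to 10%), where Cxcl12 was 0.768. Cxcl9 was 82.7 without the 5 strongest cells of each library.

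At resolutions 0.5 and 2, clusters were pooled under the resolution 1 cluster that held most of their cells. For the macrophage-like cluster the pooled ratios were 0.677 and 0.681 (Ccl2), 0.606 and 0.609 (Ccl7), and 0.398 and 0.397 (Cxcl1). They are thus not ratios of macrophage-like clusters as named at those resolutions. At resolution 2 a monocyte-like cluster of 36 and 252 cells was named separately. Without cells with monocyte genes, an alternative chosen after seeing the data, the macrophage-like ratios were 0.867 (Ccl2) and 0.773 (Ccl7). Pooled in the same way at resolution 0.5, the Dpep1 and Inmt cells held 30.3% of AAV-Isl1 Ccl19 UMIs and 26.7% and 28.3% of Cxcl10. At 2-fold, 0 members, 0 other ligands and 0 NF-kB genes were lower, 1 NF-kB gene and 3 interferon gamma genes higher. With 1 library per group, intervals cover counting error only, and ratios from under 20 UMIs in a library, as for Cxcl9 and Ccl21a in noise-only, are the least precise.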
